A study of Bos taurus with 4 samples.

Results

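Epithelial cells of the mammary gland stand on a basement membrane and hold on to it through hemidesmosomes, plaques that tie the membrane outside the cell to the keratin filaments inside it. The membrane's ligand at these sites is laminin-332, a secreted trimer whose alpha and beta chains are encoded by LAMA3 and LAMB3. Its receptor is the integrin pair made of ITGA6 and ITGB4, joined in the plaque by the transmembrane collagen COL17A1. In the bilayered mammary epithelium these proteins belong mainly to the basal layer, together with P-cadherin (CDH3) and the transcription factor p63 (TP63), which is needed to form stratified and glandular epithelium in mice. The genes described here are 7 of the 31021 rows of a bovine RNA-seq count table: LAMA3, LAMB3, ITGA6, ITGB4, COL17A1, CDH3 and TP63. They were chosen by gene symbol for this shared role, and all 7 have a row. The labels and file headers name no genome build, so genes are identified by symbol alone.

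The cells were primary epithelial cells from the mammary gland of Chinese Holstein cows, obtained from gland tissue by culture and enzyme digestion, with no other treatment in the labels. The cows were fed alike on corn and hay, and the study set cells of cows with high milk fat (4.85%) beside cells of cows with low milk fat (3.41%). There was 1 RNA-seq library with the code HH and 1 with the code LL, and 1 small RNA library of each code. The codes are not spelled out, and the phenotype label carries the same value in both RNA-seq libraries, so each direction below is HH against LL and not high against low fat. The labels do not say how many cows, or of what age, stand behind each library. With 1 library per code there is no replicate error and no test between conditions. The intervals are exact 95% intervals that cover the counting error of reads only, and the reads carry no molecular identifiers, so they are not independent molecules.

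The table held 17369144 counts in HH and 16318951 in LL. Markers of luminal cells were present in both libraries and fit the labelled cell type, with EPCAM at 8142 counts in HH and 6242 in LL. Markers of other cells were present too: the endothelial gene VWF had 5165 and 6384 counts, the fibroblast genes COL1A1 and DCN 1792 and 910 and 4760 and 4161, and the leukocyte genes PTPRC and CD14 822 and 545 and 2126 and 2186. Members of the endothelial, fibroblast and leukocyte lists went both ways. The adipocyte list had a summed 6.29 and 6.23 TMM-scaled counts per 1000000 (CPM) over 4 genes, mostly from PLIN1 at 88 and 79 counts. LEP had 1 count in HH and 0 in LL. In such bulk libraries, fewer cells of a type and less RNA per cell cannot be told apart.

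All 7 basal adhesion genes had more reads in the HH library after scaling, and they differed from each other in how much more. LAMB3 and ITGB4 were a little over 2-fold higher, COL17A1 and LAMA3 were in between, and TP63, CDH3 and ITGA6 were higher by 1.22-, 1.17- and 1.14-fold. Together they took 20885 counts in HH, 0.120% of the library (0.119 to 0.122%), and 12448 in LL, 0.0763% (0.0749 to 0.0776%). Every one of the 7 had at least 100 summed counts, the minimum for a gene to be compared. A gene was called when its whole interval lay past 2-fold, and 2 of the 7 were called, both higher in HH and none higher in LL. Over all 12804 genes that reached the minimum, 1.87% were called higher in HH and 1.0% higher in LL. By the weaker rule that the whole interval lies past no change, all 7 were higher in HH, beside 27.2% of all genes higher in HH and 27.9% higher in LL. These all-gene shares are also the ones to set beside the counts of each list below. The median log2 ratio of HH over LL was 0.51 over the 7 genes and −0.01 over all genes compared.

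**Figure D1:**
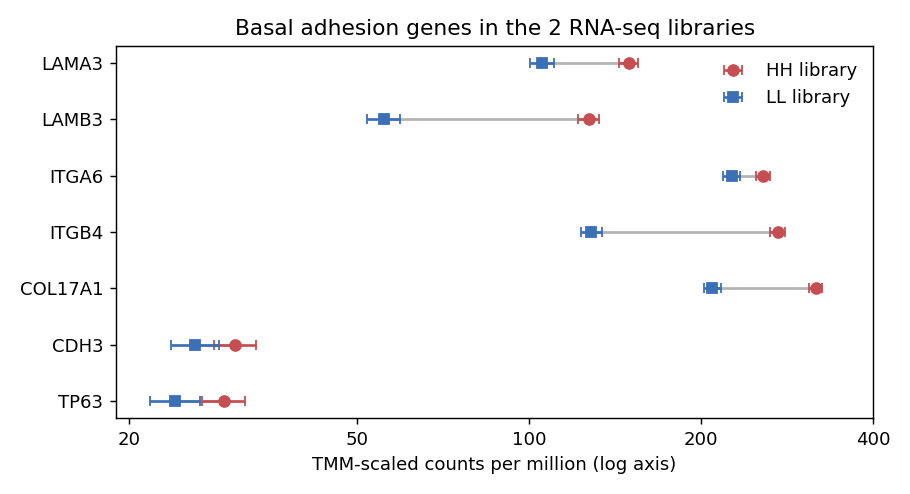
Level of each basal adhesion gene in the HH library (circles) and the LL library (squares), in CPM on a log axis, with exact 95% Poisson intervals of the counts. Every circle lies to the right of its square, with wide gaps for LAMB3 and ITGB4 and a narrow one for ITGA6. Levels of different genes are not set against each other, since they are not per transcript length.

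The ligand chains came first in the comparison. LAMB3, the beta chain of laminin-332, had 2246 counts in HH and 895 in LL, or 127 and 55.8 CPM. The whole interval lay past 2-fold, with a ratio of 2.28-fold (2.11 to 2.47) and a log2 ratio of 1.19 (1.08 to 1.30). LAMA3, the alpha chain that carries the binding site for integrins, had 2640 and 1691 counts, or 150 and 105 CPM. Its log2 ratio of 0.51 (0.42 to 0.59) was above no change and below 2-fold. The log2 ratio of LAMB3 stood above that of LAMA3 by 0.68 (0.54 to 0.83), so these partner chains were not higher by the same factor.

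The same comparison can be made as a share of reads, which does not depend on how the libraries are scaled. Of the reads on LAMA3 and LAMB3, LAMA3 held 54.0% in HH (52.6 to 55.4%) and 65.4% in LL (63.5 to 67.2%). The intervals of the libraries did not overlap. Shares of reads also depend on transcript length and are not shares of molecules, but length is the same in both libraries if the same transcripts are made.

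The receptor subunits were unequal too. ITGB4, the beta subunit whose long cytoplasmic tail anchors the hemidesmosome, had 4805 counts in HH and 2065 in LL, or 272 and 129 CPM. Its ratio was 2.12-fold (2.01 to 2.23) and its log2 ratio 1.08 (1.01 to 1.16), so its lower bound only just cleared 2-fold. Under upper-quartile scaling the interval ran from 0.99 to 1.14, which ends the call. ITGA6, the alpha subunit, which also pairs with ITGB1, had 4535 and 3631 counts, or 257 and 226 CPM. It had the smallest log2 ratio of the 7, at 0.18 (0.12 to 0.25). The log2 ratios of the subunits differed by 0.898 (0.799 to 0.996). ITGA6 took 48.6% of the reads of the pair in HH (47.5 to 49.6%) and 63.7% in LL (62.5 to 65.0%).

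The alternative partners of these subunits were read in the same way. ITGB1, the widely expressed beta subunit, had 6379 and 4655 counts and a log2 ratio of 0.32 (0.26 to 0.37). ITGB4 made up 43.0% of the reads on ITGB4 and ITGB1 in HH (42.0 to 43.9%) and 30.7% in LL (29.6 to 31.8%). ITGA3, the alpha subunit of the other laminin-332 receptor, had 1766 and 911 counts and a log2 ratio of 0.82 (0.70 to 0.93). ITGA6 made up 72.0% of the reads on ITGA6 and ITGA3 in HH (70.8 to 73.1%) and 79.9% in LL (78.7 to 81.1%). The HH library thus held a larger share of ITGB4 among these beta subunits and a smaller share of ITGA6 among these alpha subunits.

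**Figure D2:**
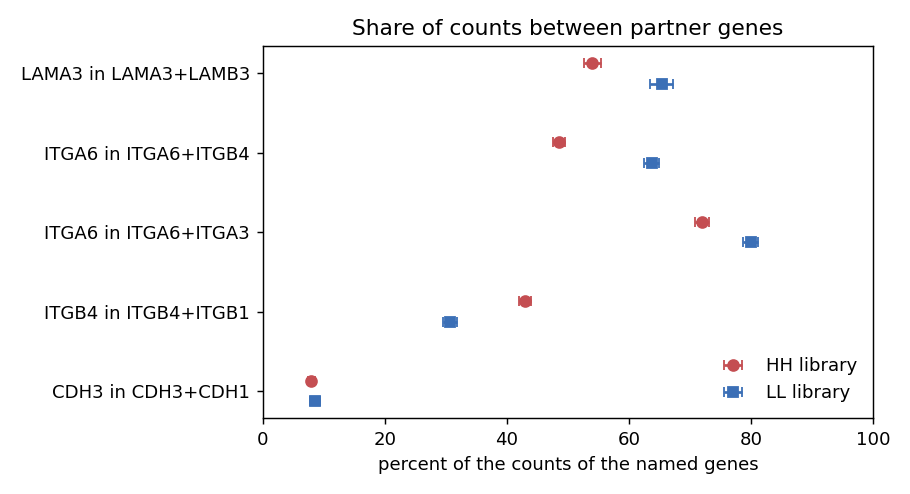
Share of reads that the first-named gene takes among the named partner genes, in percent, in the HH library (circles) and the LL library (squares), with exact 95% binomial intervals. LAMA3 and ITGA6 take smaller shares in HH, ITGB4 a larger one, and the intervals overlap for CDH3.

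COL17A1, the collagen that spans the membrane of the hemidesmosome and binds ITGB4 and laminin-332, had 5601 counts in HH and 3361 in LL, or 317 and 209 CPM. Its log2 ratio was 0.60 (0.54 to 0.66). This placed it with LAMA3, from which it differed by 0.09 (−0.01 to 0.20), and below ITGB4 by 0.48 (0.38 to 0.58). A second row, LOC510961, described in the table as similar to the collagen XVII chain, had 27 and 12 counts. How the authors counted reads shared between such copies is not stated, and the row is small beside COL17A1.

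CDH3, the cadherin of cell contacts in the basal layer, had 541 counts in HH and 419 in LL, or 30.6 and 26.1 CPM. Its log2 ratio was 0.23 (0.04 to 0.42). CDH1, the E-cadherin gene, which follows CDH3 in the gene order of the RefSeq assembly ARS-UCD2.0, had 6226 and 4441 counts and 0.35 (0.29 to 0.41). CDH3 took 7.99% of the reads on both cadherins in HH (7.36 to 8.67%) and 8.62% in LL (7.85 to 9.45%), and those intervals overlap. In that assembly CDH3 also overlaps ZFP90, which had 180 and 190 counts. The labels do not say whether the counting used strand, so the CDH3 counts may hold reads of that gene.

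TP63, the transcription factor of basal epithelial cells, had 517 counts in HH and 386 in LL, or 29.3 and 24.0 CPM. Its log2 ratio was 0.28 (0.09 to 0.48). TP73, which encodes the related factor p73, had 87 and 108 counts and −0.45 (−0.87 to −0.03), opposite in direction to TP63. A gene table cannot separate the p63 isoforms with and without the amino-terminal activation domain.

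By their log2 ratios the 7 genes ran from LAMB3 through ITGB4, COL17A1, LAMA3, TP63 and CDH3 to ITGA6. Of the 21 pairs among them, 16 differed beyond counting error and 5 did not. Those 5 were LAMB3 with ITGB4 (0.11, −0.03 to 0.25), COL17A1 with LAMA3, and each pair among TP63, CDH3 and ITGA6. The difference between LAMA3 and its next neighbour TP63 was 0.22 (0.01 to 0.43), so its interval came close to 0. Among all 12804 genes compared, 2.43% had a log2 ratio at or above that of LAMB3 and 3.01% at or above that of ITGB4. The share was 8.98% for COL17A1, 11.3% for LAMA3, 21.7% for TP63, 25.5% for CDH3 and 29.1% for ITGA6. With 2 libraries a likeness of pattern between genes is no more than a like ratio, and none was computed.

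**Figure D3:**
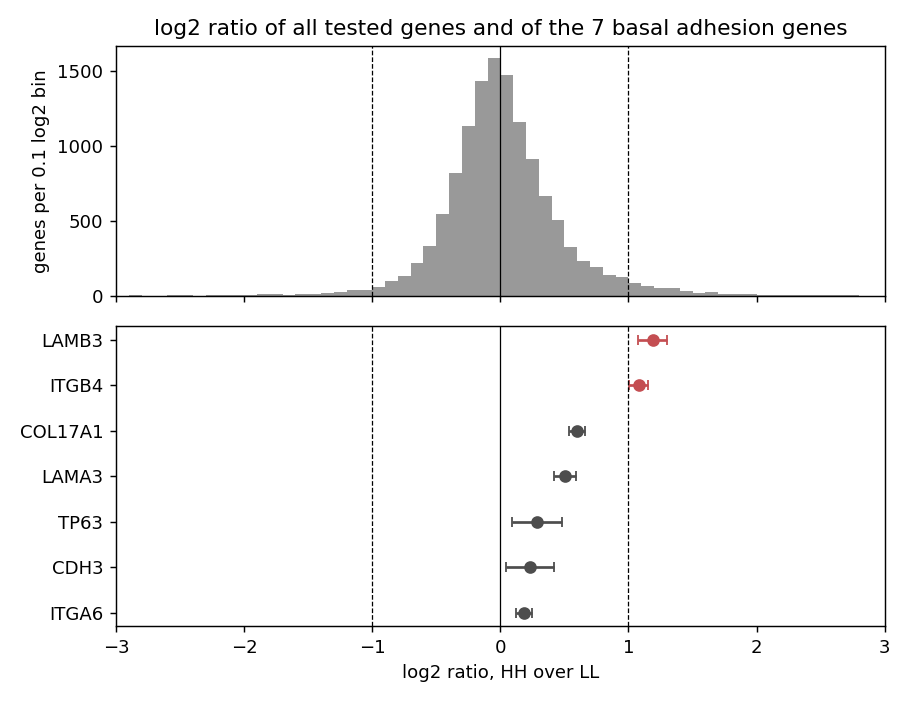
Upper panel: number of genes per 0.1-wide bin of log2 ratio, HH over LL, for the compared genes within 3 of 0 (45 genes lie outside). Lower panel: log2 ratio and exact 95% interval of each basal adhesion gene, in red where the whole interval is past 2-fold (dashed lines). All 7 lie right of 0, and LAMB3 and ITGB4 lie past 1.

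The other laminin chains that could be compared had smaller ratios than LAMB3. Of 11 chain genes looked up 10 had a row, 9 were compared and LAMB3 was the 1 past 2-fold in HH, with none past it in LL. The list's median log2 ratio was 0.17 with LAMA3 and LAMB3 and 0.03 without them, beside −0.01 over all genes with at least 20 summed counts. LAMA5, the alpha chain of laminin-511, had 4393 and 2444 counts and 0.71 (0.64 to 0.78). LAMC1, the gamma chain of laminin-511, had 4797 and 4296 counts and 0.02 (−0.04 to 0.08), and LAMB1 was at −0.16 (−0.26 to −0.05). LAMB2, with 2991 and 2424 counts, was at 0.17. LAMA1 had 7 counts in HH and 0 in LL.

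The remaining parts of the hemidesmosome included genes with ratios as large as that of LAMB3 or larger. All 8 listed genes were compared, and 4 were past 2-fold in HH and none in LL, beside 1.87% and 1.0% of all genes. The median log2 ratio was 0.85 over all 8. Without ITGA6, ITGB4 and COL17A1, 3 of the other 5 were past 2-fold in HH, and their median was 1.29. Those 3 were KRT14 at 1.70 (1.44 to 1.96) and KRT5 at 1.29 (1.24 to 1.34), the keratin pair of basal cells, and DST at 1.44 (1.39 to 1.49). DST encodes dystonin, whose epithelial form links the plaque to keratin. It is listed as LOC535297, matched by gene ID, with 12436 counts in HH and 4173 in LL. PLEC, the plectin gene, listed as LOC786966, had 15196 and 10715 counts and 0.37 (0.33 to 0.40). CD151, a tetraspanin that associates with laminin-binding integrins, had 14662 and 8667 counts and 0.62 (0.58 to 0.66). Within the plaque, DST stood above PLEC, as ITGB4 stood above ITGA6. Both DST and PLEC make several isoforms that a gene count does not separate, and some of them are made outside epithelium.

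Among integrin alpha subunits, 17 of 18 had a row, 15 were compared and none was past 2-fold in either direction, with a median log2 ratio of 0.18. By the weaker rule 6 were higher in HH and 5 lower, beside 27.2% and 27.9% of all genes. ITGA6, ITGAV (2919 and 3559 counts, −0.42) and ITGA1 (2606 and 2567, −0.12) had the most reads. The highest ratio among those compared was that of ITGA8, with 356 and 136 counts and 1.25 (0.96 to 1.55), followed by ITGAL at 1.05 (0.70 to 1.42), and the lowest was that of ITGAE at −0.47. ITGA11, below the minimum, had 37 counts against 11. Among the 8 beta subunits, ITGB4 was the 1 past 2-fold, and the median was 0.29. ITGB3 had 693 and 302 counts and 1.06 (0.86 to 1.26), close to ITGB4 but with a wider interval. ITGB6, an epithelial subunit that pairs with ITGAV, went the other way, with 2806 and 3300 counts and −0.37 (−0.44 to −0.30). The members of that pair thus had lower levels in HH, while ITGB4 was higher.

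Other genes of the basement membrane went both ways. Of 13 listed genes 11 were compared, none was past 2-fold, and the median log2 ratio was 0.34. By the weaker rule 7 were higher in HH and 2 in LL, beside 27.2% and 27.9% of all genes. HSPG2, which encodes perlecan, had 5416 and 5198 counts and −0.08. The chains of collagen IV, COL4A1 and COL4A2, had −0.24 and 0.15, and DAG1, the dystroglycan gene, 0.49. AGRN, the agrin gene, had 2109 and 1082 counts and the highest ratio of the list, 0.83 (0.72 to 0.93). COL7A1, whose product forms the anchoring fibrils below laminin-332, had 1255 and 755 counts and 0.60 (0.46 to 0.73).

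Cell-cell junction genes were mostly higher by small factors. Of 16 listed genes, CDH3 among them, 15 were compared and none was past 2-fold, and the median log2 ratio was 0.21. By the weaker rule 11 were higher in HH and 1 in LL, beside 27.2% and 27.9% of all genes. DSP, the desmoplakin gene, had 13056 and 8649 counts and 0.46, CTNNA1 was at 0.06 and CTNND1 at 0.21. PKP1, a desmosomal plaque protein, was at 1.13, with a lower bound of 0.996. It was past 2-fold when scaled by total counts or by DESeq2 size factors. PKP2, another plaque gene, had 429 and 422 counts and the lowest ratio of those compared, −0.11 (−0.31 to 0.08). PERP, a desmosomal gene that p63 controls in mice, was also at −0.11 (−0.18 to −0.03).

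Genes linked to p63 in keratinocytes were spread to both sides. All 12 were compared, and 3 were past 2-fold in HH and none in LL, beside 1.87% and 1.0% of all genes. The median log2 ratio was 0.26. The 3 were KRT5, KRT14 and DST, which also stand in the hemidesmosome list. By the weaker rule 6 were higher in HH and 5 in LL, beside 27.2% and 27.9% of all genes. EGFR, the epidermal growth factor receptor, had 2916 and 4383 counts and −0.73 (−0.79 to −0.66). FERMT1, which encodes the epithelial integrin activator kindlin-1, had 607 counts in HH and 1209 in LL and a log2 ratio of −1.13 (−1.27 to −0.99), whose upper bound fell just short of 2-fold.

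Adaptors that link integrins to actin were mostly higher in HH by small factors. Of 12 compared none was past 2-fold, and the median was 0.28. By the weaker rule 9 were higher in HH and 2 in LL, beside 27.2% and 27.9% of all genes. TLN1, the talin gene, had 11559 and 8988 counts and 0.23, ZYX 7869 and 5443 and 0.39, and VCL 0.30. SRC had the highest ratio, 0.74 (0.38 to 1.10), at 185 and 101 counts. FERMT2, the kindlin gene expressed outside epithelia too, was at 0.53 (0.42 to 0.63), opposite in direction to FERMT1.

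Proteases known to cut laminin-332 or to shed collagen XVII had a median log2 ratio of 0.61 over 7 genes. MMP2, which cleaves laminin-332 in rats, was the 1 past 2-fold, with 3682 and 1179 counts and 1.51 (1.41 to 1.60). ADAM9 and ADAM17, which shed collagen XVII, had 3306 and 1901 counts and 2311 and 1349 counts, at 0.66 and 0.64. BMP1 was at −0.16 and TLL1, at 46 and 56 counts, at −0.42. MMP2 is also a fibroblast gene, and the 9 fibroblast markers summed to 1423 CPM in HH and 1230 in LL. Their median log2 ratio was 0.58, with 6 higher in HH and 1 in LL by the weaker rule, and none was at 0. LUM and FAP were at 1.23 and 1.25, COL1A1 at 0.84 and COL3A1 at −0.28. The part of other cells in the MMP2 ratio was not tested.

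The summed markers of the epithelial layers were also higher in HH. By the weaker rule 4 of 5 basal keratins, all 6 myoepithelial and 7 of 8 luminal genes were higher in HH. None of these genes was higher in LL by that rule, beside 27.2% and 27.9% of all genes higher in HH and in LL. Of 5 basal keratins all had counts in both libraries and 3 were past 2-fold in HH, KRT14, KRT17 and KRT5, and their summed level was 1914 CPM in HH and 925 in LL. KRT15, another basal keratin, was at 0.15 (0.10 to 0.20). The 6 myoepithelial genes, led by the smooth muscle myosin MYH11, summed to 2470 and 1433 CPM, with a median log2 ratio of 0.80. None had its whole interval past 2-fold, with CNN1 at 1.08 (0.95 to 1.21) and TAGLN at 1.03 (0.97 to 1.08). The 8 luminal genes, led by KRT19, summed to 7203 and 4759, with KRT18 past 2-fold. The 5 endothelial genes summed to 706 and 870, lower in HH, and the 6 immune genes to 262.4 in both, with a median log2 ratio of −0.15. Among the immune genes CD3E was at 1.02 and PTPRC at 0.46, and CD14 and CD68 at −0.18 and −0.23. The part of these cell types in the ratios of the 7 genes was not tested, since no file separates cells.

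Setting each gene against epithelial genes in place of the whole library, a comparison chosen after the values were seen, changed the picture. Per 1000 counts of KRT5, KRT14 and KRT17 all 7 were lower in HH, with log2 ratios from −1.26 in ITGA6 to −0.26 in LAMB3. ITGB4, for example, had 182 counts in HH and 234 in LL per 1000 of those keratins, although KRT5, KRT14 and KRT17 have close paralogs that may share reads. Those keratins are the 3 of the basal list past 2-fold, and the result for LAMB3 and ITGB4 rests on that choice. Against all 5 basal keratins, KRT15 and KRT6A included, LAMB3 and ITGB4 were at 0.14 and 0.032 and the other 5 from −0.87 to −0.45. Per 1000 counts of CDH1, 4 were higher and 3 lower in HH. There LAMB3 had 361 and 202, ITGB4 772 and 465, ITGA6 728 and 818, and TP63 83.0 and 86.9. Per 1000 counts of the luminal keratins KRT8, KRT18 and KRT19, LAMB3 and ITGB4 were higher in HH, at 0.39 and 0.28, and the other 5 lower. The order of the 7 genes and the differences between their log2 ratios are the same on every such scale, because each reference shifts all of them alike.

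**Figure D4:**
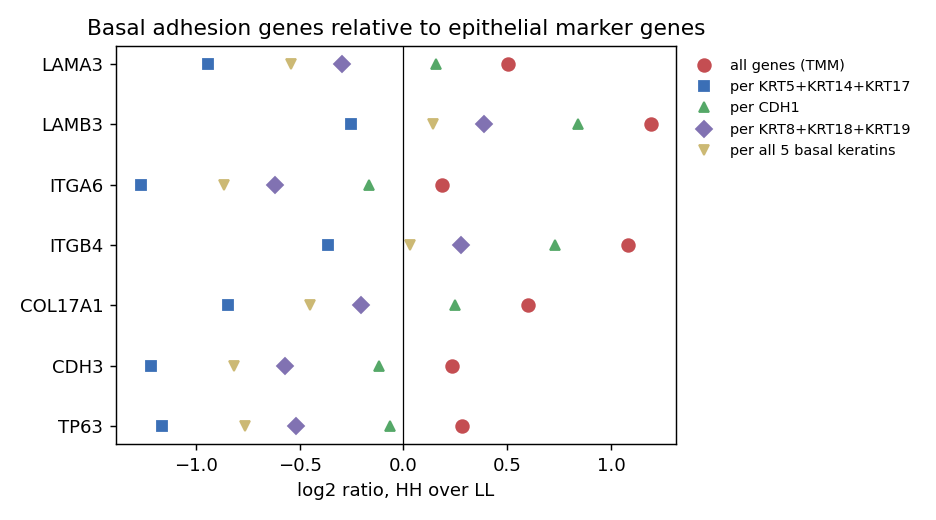
log2 ratio, HH over LL, of each basal adhesion gene relative to all genes (TMM scaling, circles), to CDH1 (triangles), to KRT8, KRT18 and KRT19 (diamonds), to all 5 basal keratins (inverted triangles) and to KRT5, KRT14 and KRT17, the 3 of those past 2-fold (squares). The circles are right of 0 for all 7 genes and the squares left of 0 for all 7, and LAMB3 and ITGB4 are right of 0 on the other scales.

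Genes beside LAMB3 and ITGB4 in the RefSeq order were not past 2-fold. G0S2, which precedes LAMB3, had 72 and 61 counts and 0.10 (−0.41 to 0.62), and CAMK1G, which follows LAMB3, had 20 and 11, too few to be compared. GALK1 and SAP30BP, on either side of ITGB4, were at 0.12 (−0.18 to 0.42) and −0.16 (−0.30 to −0.03). SLK, beside COL17A1, was at 0.16. ANKRD29, which follows LAMA3, was the 1 flanking gene past 2-fold, with 139 and 43 counts and 1.56 (1.05 to 2.08). The deposited table's build is not stated, so neighbours are taken from ARS-UCD2.0 by name.

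The small RNA libraries give another readout under the same codes, although their phenotype label differs from that of the RNA-seq libraries. MiR-205 is abundant in basal epithelial cells, and its gene lies on the same chromosome as LAMB3 in ARS-UCD2.0 with only CAMK1G of the protein-coding genes between them. MiR-203 represses p63 in the skin of mice. The miR-200 family, to which miR-141 and miR-429 belong, is abundant in epithelium with E-cadherin. The files listed 7087726 miRNA reads in HH and 9059038 in LL, and bta-mir-205 had 1 read in each. These reads are shown because they are all that was listed for miR-205, with bases 2 to 8, the seed, in capitals:
bta-mir-205 in HH: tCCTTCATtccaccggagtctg
bta-mir-205 in LL: tCCTTCATtccaccggagt

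Both reads start alike and the LL read is the shorter, at 19 against 22 nucleotides. The level was 0.141 reads per 1000000 miRNA reads (RPM) in HH (0.0036 to 0.786) and 0.110 in LL (0.0028 to 0.615). For bta-mir-203, bta-mir-141 and bta-mir-429 there were 0 reads in both, which allows up to 0.423 RPM in HH and 0.331 in LL at 3 reads. The same held for bta-mir-2352, whose gene overlaps ITGA6 in ARS-UCD2.0. Precursors bta-mir-200a and bta-mir-200c had 1 read in LL and 0 in HH, and bta-mir-200b 1 in HH and 0 in LL. All of these are at or under the limit that a count of 0 allows, so no ratio was computed. In the RNA-seq libraries of the same codes CDH1 had 6226 and 4441 counts, EPCAM 8142 and 6242, and KRT5 12968 and 4822. Gene counts and miRNA reads are unlike measures, so their sizes are not compared. Why the listed small RNA reads hold so few of these miRNAs was not tested.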

How the data were processed

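Messenger RNA was measured in 2 RNA-seq libraries and miRNA in 2 small RNA libraries. Per the labels' protocols, RNA came from TRIzol extraction and DNase I treatment, molecules longer than 18 nucleotides were kept, and an Ion Total RNA-Seq kit was used for the libraries. The authors deposited raw counts of reads on each gene in HH and LL and, for each small RNA library, read counts per sequence tag of the class miRNA. The aligner, counter and build are not stated in the labels or headers. Libraries were grouped by the codes in their titles. The genes and lists were chosen with earlier results of these data known.

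Libraries were scaled by TMM (edgeR 4.0.16 in R 4.3.3). Each log2 ratio took its interval from the 95% Clopper-Pearson bounds on the HH part of a gene's reads. Genes needed 100 summed counts to be compared and 20 to enter a list median. Differences between log2 ratios of genes have exact conditional odds-ratio intervals (scipy 1.17.1). For a count of 0, the level at 3 counts is given as a limit. No count was replaced, and no ratio was computed where a library had 0. The named genes of a list were those past 2-fold and otherwise the 3 with the most counts and the largest ratios either way. Others were chosen after their values were seen: COL7A1, DAG1, ITGB3, PERP, FERMT2, BMP1, LAMA1, LEP, KRT15, EPCAM, PTPRC, ITGAL and LOC510961. So were the fibroblast and other immune genes but the most abundant, and the neighbouring genes. Listed symbols without a row were looked up by gene ID in RefSeq (assembly ARS-UCD2.0). The steps were tested on simulated data. Some items on the lists are withheld for evaluation and are not reported here. Total counts, DESeq2 1.42.0 size factors, the upper quartile, mRNA genes only, other minimums and other call rules were set beside the main choices.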

Additional observations from a re-analysis of the deposited data

How the results depend on the processing

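No paired analysis was possible because each code has 1 library of a kind. The 4 other scalings shifted all log2 ratios by −0.02 to 0.05. All 28 values of the 7 genes under them stayed inside their main intervals, and the 36 list medians moved by less than the counting error of a typical list gene. The number of the 7 genes past 2-fold in HH, 2 in the main setting, was 1 under the upper quartile and with mRNA genes only, where ITGB4 was no longer called, and 0 at 4-fold. Over all genes, 240 were higher in HH and 128 in LL. A point ratio gave 452 and 229, and 4-fold gave 49 and 34. In LL there were 199 with a minimum of 20 counts and 218 with none. Among lists, integrin beta subunits had 0 past 2-fold under the upper quartile and with mRNA genes only. The hemidesmosome list had 3 in place of 4 under those same settings. Genes linked to p63 had 4 in place of 3 under the upper quartile. Integrin alpha subunits had 1 by total counts, junction genes 1 by total counts and DESeq2 size factors, and focal adhesion genes 1, FERMT1, under the upper quartile.

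Scalings to marker genes were added after seeing the data. Scaled to KRT5, KRT14 and KRT17, the log2 ratios were −0.94 for LAMA3, −0.26 for LAMB3, −1.26 for ITGA6, −0.36 for ITGB4, −0.85 for COL17A1, −1.21 for CDH3 and −1.16 for TP63. Scaled to CDH1 they were 0.16, 0.84, −0.17, 0.73, 0.25, −0.12 and −0.066 in the same order. Scaled to KRT8, KRT18 and KRT19 they were −0.30, 0.39, −0.62, 0.28, −0.20, −0.57 and −0.52, and scaled to all 5 basal keratins −0.54, 0.14, −0.87, 0.032, −0.45, −0.82 and −0.76. These references themselves differ between the libraries, which by construction lowers the ratios; why they differ was not tested. The planned small RNA alternatives gave no ratio, since every precursor concerned had 0 or 1 read. Without a second library per code, no setting gives biological error.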
